A study of Mus musculus with 8 samples.

Results

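Integrins are cell surface receptors made of 1 alpha and 1 beta subunit, through which a cell holds on to the extracellular matrix. The genes described here were taken by name: the alpha subunits Itga3, Itga5, Itga6, Itga7, Itga8, Itga9 and Itgav, and the beta subunits Itgb1, Itgb4 and Itgb5. They are 10 of the 34614 protein-coding and long noncoding RNA genes examined, and 17 other integrin subunit genes served as comparison. CpG methylation was read by reduced representation bisulfite sequencing, which samples CpG-rich restriction fragments and scores a cytosine as methylated when bisulfite leaves it unconverted. The DNA came from brain tissue of male C57 BL/6 mice, labelled dDG DGC and dissected as a layer, which is read here as the granule cells of the dorsal dentate gyrus. The labels give no age. The cocaine group held 4 mice and the saline group 4 mice, with 1 library per mouse. The sample titles name self-administration for both groups. The title of the series names reward learning with cocaine, the hippocampus and matrix genes, so the question asked here is whether integrin genes, the receptors for that matrix, differed in methylation between the groups.

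Outside the cell integrins bind laminin, fibronectin, collagen, vitronectin and other matrix proteins, and inside it their beta tails recruit talin, kindlin and further adaptors that tie the receptor to actin. Itgb1 is the shared partner of many alpha subunits. With it, Itga3, Itga6 and Itga7 form laminin receptors, Itga5 forms the classical fibronectin receptor, Itga8 binds nephronectin and other ligands with an RGD motif, and Itga9 binds tenascin-C and VCAM-1. Itgav pairs with several beta subunits, among them Itgb5, in receptors for vitronectin and for latent TGF-beta, and Itgb4 pairs with Itga6 in hemidesmosomes. In the hippocampus, integrins are known for roles in synaptic adhesion and in long-term potentiation. Promoters that are rich in CpGs are usually unmethylated whether or not the gene is active, while gene bodies in brain are usually methylated.

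Each library listed 1844706 to 2236384 cytosines, each with at least 10 reads, and median coverage per cytosine was 34 to 66 reads. All 8 libraries covered 1510385 cytosines, 48.7% of the 3101292 listed in any. Saline 1 stood apart: where a partly methylated cytosine had 30 to 40 reads, 14.3% of its values were an exact 0% or 100%, and 0.368% to 2.87% of those of the other 7 libraries. The leading values are therefore also given without it. Within the 10 genes and 5 kb on either side, 1350 of 2390 listed cytosines were covered in all 8 libraries. Of these, 738 lay inside a gene more than 1 kb from both of its ends (its interior), 352 within 1 kb of a lower-coordinate end, 180 within 1 kb of a higher-coordinate end and 80 farther out in the flanks. Cytosines with gaps of at most 100 bp were joined into runs of at least 3, which gave 116 integrin runs. Tests were made on the 81 runs with a pooled level (methylated reads over all reads of all 8 libraries) from 5% to 95%: 7 in Itga3, 3 in Itga5, 12 in Itga6, 4 in Itga7, 3 in Itga8, 26 in Itga9, 5 in Itgav, 12 in Itgb4 and 9 in Itgb5. Itgb1 had cytosines at its start only and no run in that range. Distances are given from the 5′ end of the gene's span where a promoter entry gives the strand, and from the end with the lower coordinate for Itga6, Itga7 and Itgb4, whose strand is not given in the tables used here. Coordinates are mm10, counted from 1, and exons were not placed.

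The start sites show how these genes divide into unmethylated CpG-rich starts and methylated sequence. Below are 4 stretches before a RefSeq start (assembly GRCm38.p6), 5′ to 3′ on the gene's strand, with the CpGs that were read in all 8 libraries in capitals. The outer Itga3 stretch is the part of its window outside the gene's span, so it stops short of the start site at base 95076714 and shows 8 of the window's 24 CpGs. The other 3 end just before the start site. Itga3 was chosen because it has both an unmethylated and a methylated start. Itgb1 and Itgb5, the only beta subunits described here with a promoter entry, were chosen to show what an unmethylated start looks like.
Itga3 outer start, chr11:95076845-95076964, minus strand: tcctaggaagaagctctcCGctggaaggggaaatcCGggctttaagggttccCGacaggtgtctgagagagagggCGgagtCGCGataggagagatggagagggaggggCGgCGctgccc
Itga3 inner start, chr11:95069199-95069448, minus strand: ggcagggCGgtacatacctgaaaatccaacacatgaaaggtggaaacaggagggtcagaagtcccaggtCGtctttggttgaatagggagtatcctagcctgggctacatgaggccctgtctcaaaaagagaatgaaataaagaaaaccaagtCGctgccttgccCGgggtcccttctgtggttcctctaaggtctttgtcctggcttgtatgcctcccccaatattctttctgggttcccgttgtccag
Itgb1 start, chr8:128685404-128685653, plus strand: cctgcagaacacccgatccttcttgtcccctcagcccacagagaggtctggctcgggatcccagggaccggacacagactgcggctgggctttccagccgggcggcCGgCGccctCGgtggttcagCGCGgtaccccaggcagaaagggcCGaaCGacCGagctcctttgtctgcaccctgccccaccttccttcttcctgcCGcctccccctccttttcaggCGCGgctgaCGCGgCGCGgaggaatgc
Itgb5 start, chr16:33829415-33829664, plus strand: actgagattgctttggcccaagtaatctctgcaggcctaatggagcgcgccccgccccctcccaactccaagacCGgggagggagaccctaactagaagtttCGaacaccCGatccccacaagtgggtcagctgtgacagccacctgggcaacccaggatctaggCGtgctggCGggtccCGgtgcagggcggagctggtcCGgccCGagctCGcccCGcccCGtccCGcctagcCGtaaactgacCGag

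Promoter entries existed for 7 of the 10 genes, with 8 windows of 300 bases in all (250 before the start and 50 after it). In the outer Itga3 window, 24 CpGs stood at 0.768 of the number its C and G content would give by chance, and its 32 common cytosines had a pooled level of 0.199%. No library exceeded 0.606% there. The inner Itga3 window lies inside the gene, with 5 CpGs at 0.244 of the expected number. Its 5 common cytosines had a pooled level of 84.5%, with 73.0%, 92.4%, 90.0% and 84.3% in cocaine 1 to 4 and 78.0%, 84.4%, 90.3% and 83.6% in saline 1 to 4. Both Itga3 starts were thus read in every mouse, one nearly unmethylated and the other mostly methylated, and the groups overlapped at both. Pooled levels in the other windows were 1.13% in Itga5 (4 cytosines), 0.133% in Itga8 (19), 1.42% in Itgb1 (22) and 0.492% in Itgb5 (20). The 3 cytosines in the Itgav window had no methylated read in any library, on 62 to 145 reads each, and the inner Itga9 window held no common cytosine. Over all genes, 88.3% of the 10392 windows with at least 3 common cytosines were under 5%. Among windows with a CpG ratio of 0.6 or more that share was 97.0%. Among the 377 windows with a ratio under 0.3, like the inner Itga3 start, 18.6% were under 5% and 15.7% were over 80%. The letters GGGCGG (the GC box that Sp1-type factors bind, searched on both strands) were found in 6 of the 8 integrin windows, both Itga3 windows included, and in 35.7% of all 32851 windows. These shares are not matched for CpG content. All windows had a median of 7 CpGs, and the integrin windows apart from the inner Itga3 one held 10 to 27.

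**Figure D1:**
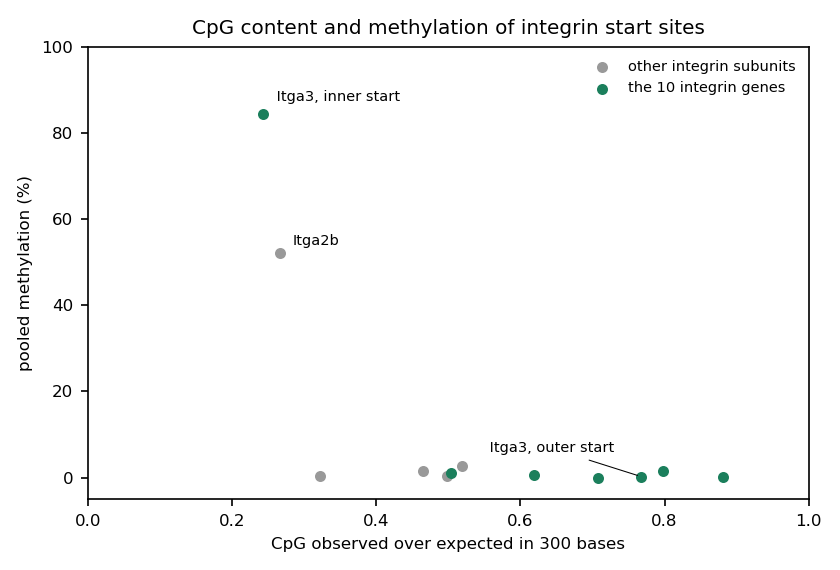
Pooled methylation (%) of RefSeq start windows of 300 bases against their CpG observed over expected ratio, for the 10 integrin genes (green) and other integrin subunits (grey) with at least 3 common cytosines. The inner Itga3 start sits at 84.5% and Itga2b at 52.1%, both with ratios under 0.3, and the other windows shown lie below 5%.

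With windows of 1 kb on either side of a gene's end, 11 ends in 9 of the 10 genes held at least 5 common cytosines, and 9 of them had a pooled level under 5%. Of all 20903 such ends of all genes, 64.2% were under 5%. The 9 low ends were the starts of Itga3 (0.317%, 70 cytosines), Itga5 (2.51%, 48), Itga8 (0.833%, 41), Itga9 (1.33%, 35), Itgb1 (1.94%, 76) and Itgb5 (1.65%, 85), and the lower-coordinate ends of Itga6 (1.04%, 83), Itga7 (1.75%, 20) and Itgb4 (4.12%, 53). The Itga8 window also covers an end of the long noncoding RNA gene E030013I19Rik, whose strand was not given. Among the other integrin subunits, 6 of 12 such ends were under 5% and 4 were over 80%. The weakly methylated ones belong to the collagen receptor subunits Itga1, Itga2 and Itga11 and to Itga4, Itgb3 and Itgb8. The ends at 64.4% or more belong to Itga2b, the platelet subunit, and to Itgal, Itgb2, Itgae, Itgax and Itgad, known from leukocytes. The Itgax window is at its 3′ end, and the strands of Itgal, Itgb2, Itgae and Itgad were not given, so these are not all start sites.

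At the low ends the methylated reads were few. At some ends they lay in different places in different mice, and at others in the same places. The Itgb1 start read 0.395%, 0.324%, 4.02% and 2.95% in cocaine 1 to 4 and 4.70%, 2.75%, 0.417% and 0.360% in saline 1 to 4. Thus 2 mice of each group were above 2.7% and 2 below 0.42%, and the groups overlapped fully. At 29 of its 76 cytosines some library reached 10% or more, and at each of the 29 it was 1 library alone. In the run from base 128686149 to 128686312, saline 1 stood at 10.99% and every other library at 0.679% or less. In the neighbouring run, from 128685510 to 128685847, saline 1 had no methylated read, while cocaine 3 stood at 5.90%, saline 2 at 3.95% and cocaine 4 at 3.76%. The Itgb5 start had 30 of 85 cytosines at 10% or more in some library, 16 of them in 1 library alone. The Itga3 start had 2 of 70, and 40 of its cytosines had no methylated read in any library. At the Itgb4 end 24 of 53 cytosines reached 10% in some library and 7 of them did so in 4 or more, with a pooled level of up to 38.7%. At the Itga5 start this held for 4 of 9 such cytosines, with a pooled level of up to 29.0%, and at the Itga8 start for 2 of 5. Such small levels in single libraries count reads for which the labels name no molecular identifiers, so how many DNA molecules stand behind them was not measured.

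Away from the starts, methylation rose over short distances. Boundary runs close to the starts, chosen after their values were seen, show this in 4 genes. In Itga6 the level was 0.917% in the run 160 bp from the lower-coordinate end, 2.26% at 882 bp, 4.996% at 1147 bp and 35.8% at 1466 bp, and it reached 86.4% at 18433 bp. In Itga8 it rose from 0.191% at 51 bp and 1.42% at 487 bp to 18.99% at 998 bp and 65.5% at 1452 bp. In Itgb4 it was 1.95% at 336 bp, 29.0% at 960 bp and 65.5% at 4495 bp. In Itga5 a run of 30 cytosines at 1100 bp stood at 13.1%, next to 0.401% at 397 bp. Within the Itgb4 boundary run the 9 cytosines ranged from 10.3% to 62.8%, so all were partly methylated.

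The interiors were methylated to very different degrees. Ordered by pooled level they were Itgav at 31.2%, Itgb4 at 37.7%, Itga5 at 46.6%, Itga6 at 58.5%, Itga8 at 61.2%, Itga7 at 66.8%, Itga9 at 70.9%, Itga3 at 72.6% and Itgb5 at 84.6%. Over the 8 libraries the ranges of Itgav and Itgb4, and of Itga3 and Itgb5, did not overlap, while those of all other neighbours in this order did. Within each library Itgb4 also lay below Itga5, and Itga5 below Itga6. The order partly follows which cytosines were read. The Itgav value includes 34 cytosines at 0.422% and 0.471% around the RefSeq start, since its gene span begins about 2 kb before that start (base 83722303 against 83724397). The Itgb4 value includes 85 cytosines of 1 CpG-dense run at chr11:116004826-116005678, 30527 bp from the lower-coordinate end, whose pooled level was 4.88%. In that run 73 of the 85 cytosines were under 5% and 8 were over 20%. Its values by library were 4.37%, 4.33%, 4.93% and 6.80% in cocaine mice and 4.05%, 3.75%, 5.02% and 5.87% in saline mice, and no end of a gene lies within 1 kb of it. Further weakly methylated runs inside a gene were 1 of 3 cytosines in Itga6 at 26020 bp (0.296%) and 1 of 4 cytosines in Itgb5 at 4685 bp (5.33%). Weakly methylated runs in the flanks lay at the ends of other genes: beside Itga3 at Pdk2 (0.247%), beside Itga5 at Zfp385a (1.19%) and beside Itgb4 at Galk1 (0.0476%).

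**Figure D2:**
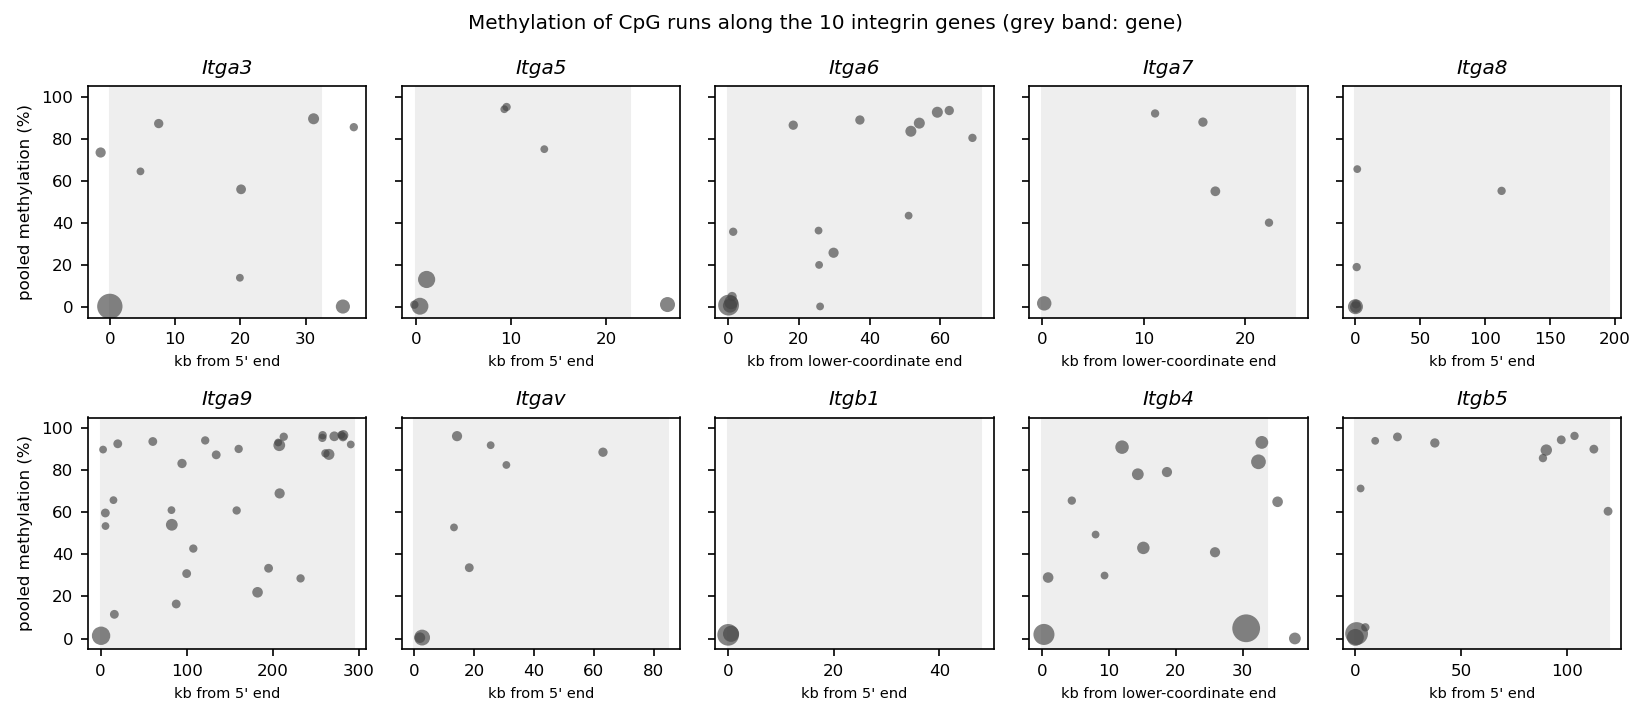
Pooled methylation (%) of each of the 116 CpG runs against its distance (kb) from the gene's 5′ or lower-coordinate end, 1 panel per gene, with the gene's span in grey and larger points for runs of more cytosines. Runs at the starts lie near 0%, the CpG-dense run far inside Itgb4 also lies near 0%, and interior runs spread from under 20% to over 95%.

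Of the 116 integrin runs, 20.7% were under 5%, 32.8% lay from 20% to 80% and 9.48% were over 95%, against 21.4%, 29.0% and 4.83% of all 128816 runs. Runs under 5% had a median of 10.1 cytosines per 100 bp, those from 20% to 80% a median of 4.35. The spread between mice of a group was small in the first, with a median SD of 0.671 points, and large in the second, with 6.94 points. Over all runs the same medians were 0.573 and 6.83 points. Itga9, the longest of the genes at 294295 bp, held 7 of the 11 runs over 95%, and 6 of these lay 257714 bp or farther from its start.

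No integrin run, end or interior was called different between cocaine and saline mice. A run was called at an adjusted p under 0.05 (quasi-binomial regression on reads with dispersions moderated by limma, Benjamini-Hochberg over all runs) together with a difference of at least 10 points. Ends and interiors needed 5 points. Of the 81 integrin runs 0 were called, against 1 of 95079 runs overall (0.00105%), which overlaps Zfp993. Of the 2 integrin ends tested 0 were called, against 0 of 7336 overall (0%), and of the 9 interiors 0, against 0 of 14641 (0%). At an unadjusted p under 0.05 there were 3 integrin runs (3.70%), 0 ends and 1 interior. Overall 5406 runs (5.69%), 415 ends (5.66%) and 1081 interiors (7.38%) reached that p, and limma on logit values gave 4786, 400 and 969, with no call. The integrin share among runs is thus near or below the background. The smallest adjusted p among integrin runs was 0.877, and it was 0.871 for ends and 0.581 for interiors.

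The level of cocaine mice was the lower in 44 of the 81 integrin runs (54.3%), against 61.6% of all tested runs, and the median difference was -0.53 points against -1.05. In 8 of the 9 interiors the cocaine mean was the lower, against 71.2% of all interiors, with a median difference of -1.06 points against -1.29. Of the 2 ends tested 1 was lower, against 64.2% of all. Over all 1350 integrin cytosines, weighted equally, mean methylation was 35.3%, 35.6%, 34.6% and 37.0% in cocaine 1 to 4 and 36.4%, 36.3%, 36.4% and 36.7% in saline 1 to 4. Of the cocaine mice 3 lay below every saline mouse and cocaine 4 above all of them. The means were 35.6% ± 0.983 and 36.4% ± 0.171 (SD, n = 4 each), a difference of -0.830 points (two-sided exact permutation p = 0.143, where 0.0286 is the smallest p possible). The same difference over all common cytosines was -0.733 points (exact p = 0.114), so the integrin cytosines had about the shift of the libraries as a whole. Without cocaine 4 the integrin difference was -1.28 points with an exact p of 0.0286, the smallest that 3 against 4 mice allow, since cocaine 4 was the only cocaine mouse not below every saline mouse. Over all common cytosines cocaine 1 to 3 also lay below every saline mouse, at 37.1%, 37.5% and 36.5% against 37.9% or more. There cocaine 4, at 38.2%, lay between saline 3 at 38.1% and saline 4 at 38.3%. Without any other single library the exact p lay between 0.200 and 0.314. The tissue is a mixture of cells, so a change in the share of a cell type and a change within cells cannot be told apart.

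Itgb5, which pairs with Itgav in a vitronectin receptor, had the interior with the smallest p. Over its 67 cytosines methylation was 81.7%, 83.8%, 82.5% and 83.1% in cocaine 1 to 4 and 85.9%, 85.4%, 85.8% and 86.6% in saline 1 to 4, on 2400 to 4628 reads per library. All 4 cocaine mice lay below all 4 saline mice. The means were 82.8% ± 0.893 and 85.9% ± 0.497 (SD, n = 4 each), and the difference of -3.12 points had an unadjusted p of 0.00733 and an adjusted p of 0.581 in the quasi-binomial fit. Among all interiors, 6.91% had a p under 0.05 with the lower level in cocaine mice. Groups did not overlap in 4.38% of interiors, and in 3.93% with cocaine mice below. Cocaine mice had the lower mean at 41 of the 67 cytosines. No such share was counted over the cytosines of all genes, but 61.6% of all tested runs had the lower mean in cocaine mice. The difference depended on the cytosines taken: it was -0.64 points (adjusted p = 0.958) at those with at least 20 reads in all libraries, and -1.18 points with each cytosine weighted equally. Without saline 1 it was -3.14 points, and over the settings tried its adjusted p lay between 0.244 and 0.961. The run of smallest p in Itgb5, 6 cytosines at chr16:33867114-33867294, 37539 bp inside the gene, read 86.6%, 93.2%, 85.2% and 90.2% in cocaine mice and 98.5%, 93.5%, 93.8% and 96.7% in saline mice. These groups did not overlap either, and cocaine mice had the lower mean at each of the 6 cytosines. As the run was picked for its p and its cytosines come from the same mice, they are not replicates. The run differed by -6.86 points (unadjusted p = 0.0271, adjusted p = 0.877). Without saline 1 it differed by -5.89 points. The interior without this run differed by -2.71 points. The 3′ end of Itgb5 (56.6%, 6 cytosines) had the opposite sign, with 54.6% ± 6.10 in saline and 60.02% ± 2.15 in cocaine mice (n = 4 each, adjusted p = 0.871), and the groups overlapped. Its difference of 5.42 points was 3.14 without saline 2 and 8.09 without saline 1.

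**Figure D3:**
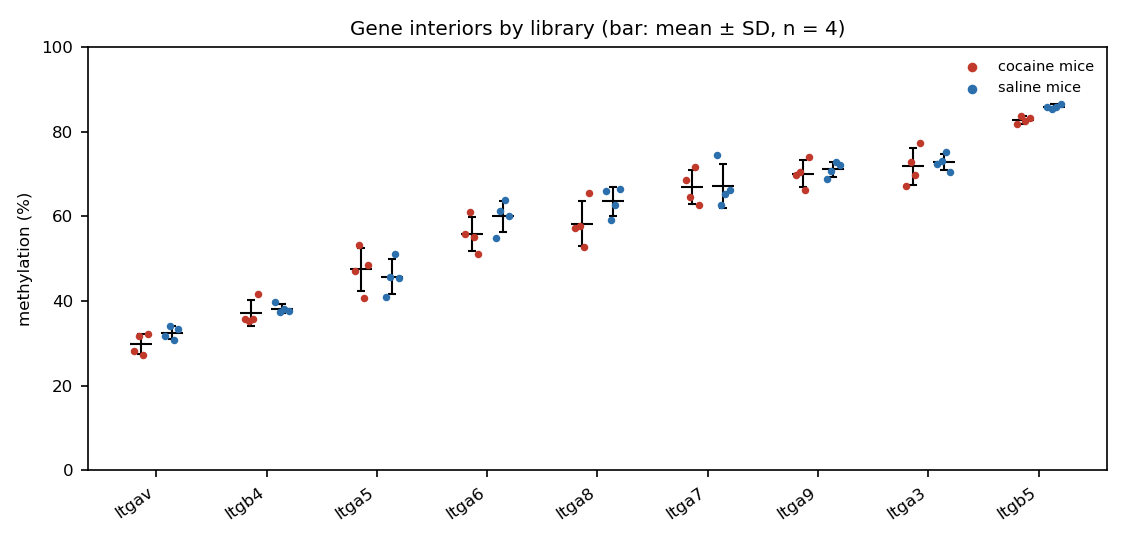
Methylation (%) of 9 integrin gene interiors by library, cocaine mice in red and saline mice in blue, with bars for mean ± SD (n = 4). Itgb5 is the one interior whose groups do not overlap, with cocaine mice from 81.7% to 83.8% and saline mice from 85.4% to 86.6%.

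The other interiors overlapped between the groups. The largest difference with all libraries was in Itga8, where cocaine mice had 57.2%, 57.7%, 52.7% and 65.6% and saline mice 66.0%, 59.2%, 62.6% and 66.4%. It came to -5.23 points on only 14 cytosines (adjusted p = 0.807). Itga6 followed with -4.17 points (55.8% ± 4.01 against 59.98% ± 3.72, n = 4 each, adjusted p = 0.712) and Itgav with -2.65 points (adjusted p = 0.738). Without saline 1 the Itga8 and Itga6 differences were -4.40 and -5.86 points, and their order also turned without cocaine 2 (-5.05 and -5.88) and without cocaine 3 (-3.35 and -3.96). Without cocaine 4 Itga6 differed by -2.63 points. Differences were between -1.06 and -0.27 points in Itgb4, Itga3, Itga9 and Itga7, and Itga5 stood at +1.72 points. The small differences in Itga3, Itga5, Itga7 and Itga9 had no stable direction. The sign turned in Itga3, Itga5 and Itga7 with cytosines weighted equally, and in these 3 and Itga9 when single libraries were left out. In Itgb4, cocaine 1 to 3 lay at 35.8%, 35.3% and 35.7%, below the 4 saline mice at 37.3% to 39.7%, while cocaine 4 lay above all at 41.8%.

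Itgb4, the laminin-binding partner of Itga6, had the integrin run with the smallest p. These 9 cytosines at chr11:115975586-115975785, the boundary run 960 bp from the lower-coordinate end, read 22.2%, 19.1%, 22.9% and 30.9% in cocaine 1 to 4 and 42.9%, 26.5%, 28.5% and 39.0% in saline 1 to 4. Cocaine 4 overlapped saline 2 and 3, and the other cocaine mice lay below every saline mouse. The means were 23.8% ± 5.04 and 34.2% ± 7.99 (SD, n = 4 each), a difference of -10.4 points with an unadjusted p of 0.0223 and an adjusted p of 0.877. Cocaine mice had the lower mean at all 9 cytosines. The run was picked for its p and these cytosines come from the same mice, so they are not replicates. Without saline 1 the difference was -7.54 points, and with gaps of at most 50 bp, which shortens the run, -6.09 points. Other boundary runs had the lower mean in cocaine mice as well, as seen after their values were known. Of all tested runs 61.6% had the lower mean in cocaine mice. In Itga8 the run at 998 bp read 11.2%, 17.3%, 11.5% and 14.9% in cocaine and 22.7%, 23.5%, 15.8% and 30% in saline mice, a difference of -9.25 points (unadjusted p = 0.0573, adjusted p = 0.879), and saline 3 overlapped the cocaine mice. In Itga6 the run at 1466 bp read 27.1%, 32.9%, 33.2% and 33.2% in cocaine and 33.5%, 37.7%, 42.2% and 45.7% in saline mice, which do not overlap, a difference of -8.20 points (unadjusted p = 0.0698, adjusted p = 0.881). The Itga5 boundary run differed by -1.14 points. Without saline 1 the Itga8 and Itga6 runs differed by -9.35 and -10.3 points. These 4 runs lie next to unmethylated starts, hold 4 to 30 cytosines each and were not tested as a group. Nearer the Itga6 start, the run at 1147 bp (4.996%, not tested) was higher in cocaine mice by 1.18 points.

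Groups that do not overlap were found in 2 of the 81 integrin runs (2.47%), the Itga6 boundary run and the Itgb5 run, with cocaine mice below in both. Over all tested runs the share was 3.31%, and 2.59% with cocaine mice below. For gene ends it was 3.6%, and neither integrin end was among them. Of the 3 integrin runs at an unadjusted p under 0.05, those in Itgb4 and Itgb5 were lower in cocaine mice, against 4.61% of all runs, and 1 in Itga9 was higher, against 1.07%.

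That Itga9 run, 5 cytosines at chr9:118741000-118741098, 134340 bp from the start, read 100%, 88.6%, 95.1% and 89.8% in cocaine 1 to 4 and 84.2%, 78.8%, 85.2% and 90.6% in saline 1 to 4. Saline 4 overlapped the cocaine mice, and the difference was 8.66 points (unadjusted p = 0.0378, adjusted p = 0.877), on 55 to 285 reads per library. Without saline 1 it was 8.49 points. Itga9 also held the largest drop, in a run named after its values were seen. Its 5 cytosines at chr9:118612130-118612197, 5454 bp from the start, read 40%, 31.0%, 55.0% and 58.1% in cocaine and 81.5%, 52.8%, 75.5% and 55.9% in saline mice. The groups overlapped, and the difference of -20.4 points had an unadjusted p of 0.0573 (adjusted p = 0.879). The next run, 3 cytosines about 200 bp on (5654 bp from the start), differed by -12.9 points (47.4% ± 5.78 against 60.3% ± 12.6, n = 4 each, adjusted p = 0.881). Without saline 1 the run at 5454 bp differed by -15.4 points. The largest rise was in Itgb4 at 8045 bp, again named after its values were seen. Its 3 cytosines read 59.6%, 45.1%, 61.1% and 75.6% in cocaine and 30.6%, 36.5%, 54.8% and 40% in saline mice, on 36 to 102 reads per library. That is 19.9 points with an adjusted p of 0.895, and saline 3 overlapped the cocaine mice.

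**Figure D4:**
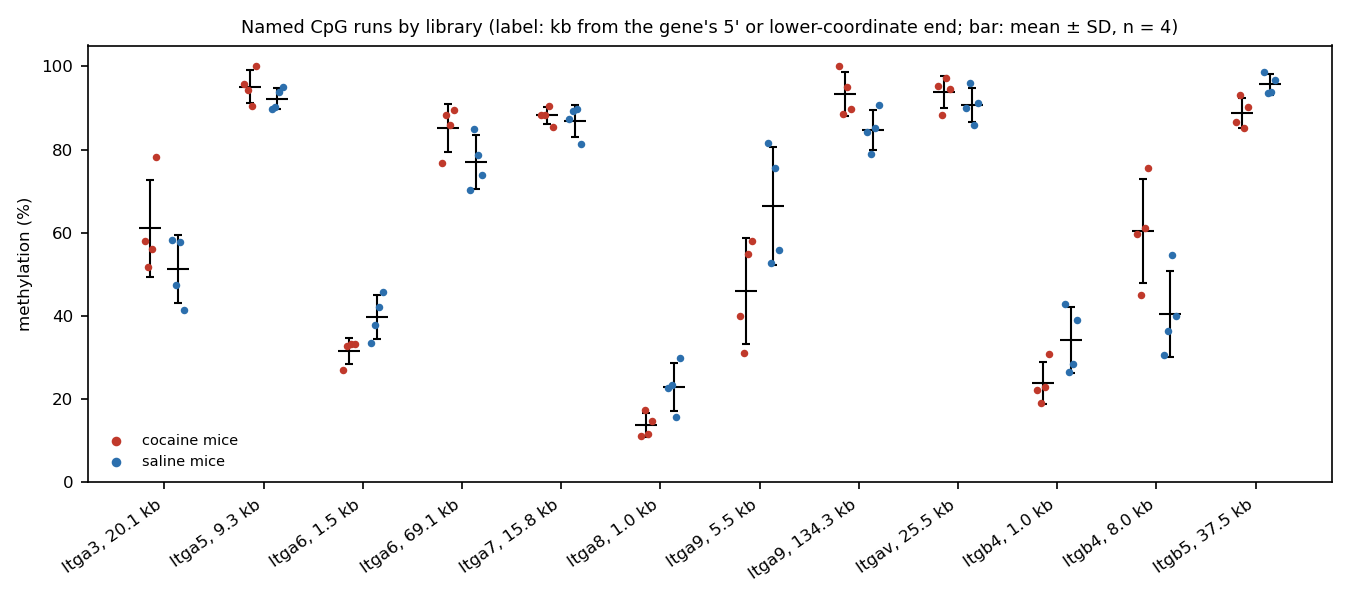
Methylation (%) of the 12 named integrin CpG runs by library, cocaine mice in red and saline mice in blue, with bars for mean ± SD (n = 4) and the distance in kb from the gene's 5′ or lower-coordinate end in the label. The groups overlap except in the Itga6 run at 1466 bp and the Itgb5 run at 37539 bp.

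In Itga3 the run at 20096 bp read 58.1%, 51.7%, 56.1% and 78.1% in cocaine and 58.2%, 47.4%, 57.7% and 41.5% in saline mice (9.81 points, adjusted p = 0.902), so that cocaine 4 was high and saline 4 low while the other mice overlapped. Without cocaine 4 the difference was 4.11 points. In Itga6 the run at 69072 bp had 85.2% ± 5.77 in cocaine and 77.0% ± 6.43 in saline mice (n = 4 each, 8.19 points, adjusted p = 0.879). Itga5 at 9278 bp (95.1% ± 3.93 against 92.2% ± 2.54) and Itgav at 25516 bp (93.8% ± 3.87 against 90.8% ± 4.09, n = 4 each) differed by 2.93 and 3.00 points. In Itga7, the laminin receptor subunit best known from muscle, the 4 tested runs differed by 0.26 to 2.89 points, and 2 of them overlap the long noncoding RNA Gm46186. Of the 81 integrin runs, 13 differed by less than -9.29 or more than 5.92 points, the 5th and 95th percentiles of all tested runs, which by construction leave 10% of these runs outside. The 13 lay on both sides, and whether 13 of 81 differs from that 10% was not tested.

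**Figure D5:**
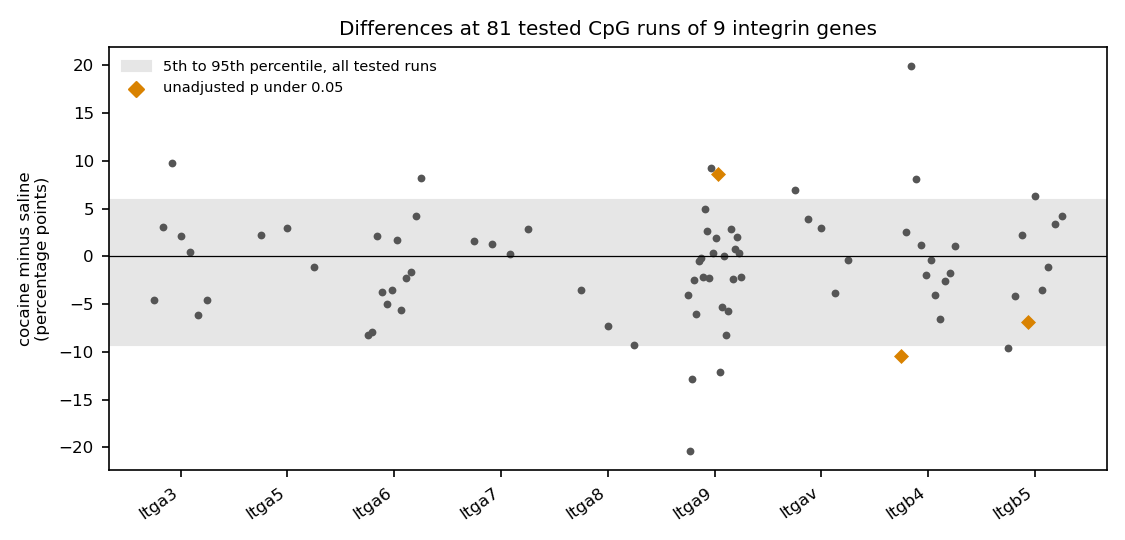
Difference in mean methylation (cocaine minus saline, percentage points) of the 81 tested integrin runs by gene, in order along the chromosome within each gene, with the 5th to 95th percentile of all tested runs in grey. The 3 orange diamonds, in Itga9, Itgb4 and Itgb5, have an unadjusted p under 0.05, and none has an adjusted p below 0.877.

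Partners of the integrins were counted in the same way. No run, end or interior was called in the 17 other integrin subunits, in 33 genes of the adhesion complex or in 24 ligand genes. Among the other subunits, 4 of 81 tested runs were lower in cocaine mice and 3 higher at an unadjusted p under 0.05 (4.61% and 1.07% of all tested runs). Of their 15 interiors 1 was lower and 1 higher, against 6.91% of all interiors lower and 7.38% in either direction. The run of smallest p lay in Itgb6 (16.5% ± 4.47 against 23.9% ± 3.801, n = 4 each, adjusted p = 0.877). In the collagen receptor gene Itga11 a run had 75.0%, 79.2%, 80.1% and 76.8% in cocaine and 82.0%, 85.5%, 89.4% and 86.9% in saline mice, which do not overlap (adjusted p = 0.877). Of all tested runs 2.59% had groups that do not overlap with cocaine mice below. Runs with the higher mean in cocaine mice were in Itga2 (13.5 points) and Itgb7 (11.1 points).

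In the adhesion complex, 15 of 290 runs were lower and 3 higher at an unadjusted p under 0.05, against the same 4.61% and 1.07% of all runs, and 7 of 27 interiors were lower and 0 higher, against 6.91% of all interiors lower. The run of smallest p lay in Cd9, a tetraspanin that associates with integrins in the membrane. It read 32.5%, 32.0%, 49.7% and 33.8% in cocaine and 60.3%, 55.4%, 53.8% and 46.6% in saline mice, so that cocaine 3 overlapped saline 4 (-17.0 points, unadjusted p = 0.000916, adjusted p = 0.874). A run in Tln1, which encodes the talin that binds integrin beta tails, read 57.8%, 60%, 63.3% and 60.7% in cocaine and 82.1%, 75.9%, 77.2% and 71.6% in saline mice. These groups were separated by more than 8 points, yet the run holds only 3 cytosines and its adjusted p was 0.874. It was picked for its p, and 2.59% of all tested runs had groups apart with cocaine mice below. The Mfge8 run named below was apart in the same way. Higher means in cocaine mice stood in the paxillin gene Pxn (11.3 points) and in Plec (10.1 points), whose product plectin links Itgb4 to keratin filaments. Among ligand genes 3 of 154 runs were lower and 2 higher at that p, again beside 4.61% and 1.07% of all runs. Of their 20 interiors 4 were lower and 0 higher, against 6.91% of all interiors lower and 7.38% in either direction. The runs were led by Col4a2, a chain of collagen IV (-11.7 points), and Mfge8, an RGD ligand of Itgav receptors (-11.4 points), and on the higher side by Tgfb1 (5.17 points) and the laminin chain gene Lamb2 (8.83 points).

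Marker genes of 5 cell types that the dissected layer could hold besides granule and pyramidal cells had lower mean interior levels in cocaine mice. No test was made of these means. Over all genes 71.2% of interiors were lower, with a median difference of -1.29 points. The levels, each over 3 to 5 genes, were 27.1% against 29.6% for interneurons, 64.9% against 67.0% for oligodendrocytes, 38.5% against 41.0% for astrocytes, 87.3% against 89.1% for microglia and 68.7% against 69.8% for endothelial cells. For granule cells they were 26.7% in cocaine and 26.4% in saline mice, and for pyramidal cells 59.7% and 58.9%. At gene ends the microglia level, from 1 gene, was the higher in cocaine mice (4.41% against 2.82%). The rest of the 5 types had the lower mean there in cocaine mice. The 3 granule cell interiors went different ways. In the quasi-binomial fit 1 was lower and 1 higher at an unadjusted p under 0.05, which 7.38% of all interiors reached. The 23 tested runs of granule cell genes had a median difference of -2.24 points, against -1.05 over all tested runs. The part of cell composition in the integrin values was not tested, and methylation of marker genes does not show which cells were present.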

How the data were processed

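The submitters' processing notes name bcl2fastq, Bismark version 22.1 and the build mm10; no source used here describes trimming or removal of duplicates. The deposited files give, per cytosine and strand, a methylation level as a fraction and the coverage as a read count, never under 10. Level times coverage came out whole at 100% of cytosines (within 1e-06 times the coverage), which gave back the methylated reads. Cytosines with 10 reads in all 8 samples on chromosomes 1 to 19, X and Y were kept, strands apart. Runs (gaps of at most 100 bp, at least 3 cytosines), gene ends (1 kb either side, at least 5 cytosines) and interiors with a pooled level of 5% to 95% were tested by quasi-binomial regression on group. The Pearson dispersion was moderated by limma 3.58.1 (R 4.3.3; squeezeVar, trend on log coverage, floor of 1) before an F test with Benjamini-Hochberg adjustment over all features of a kind. The scripts were tested on simulated data. Gene positions and promoter windows came from RefSeq tables of GRCm38.p6, in which all 10 genes matched by symbol; 105 promoter cytosines were checked against the window's bases with 0 mismatches.

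Sample titles gave groups and numbers. Members, lists and tests were chosen with earlier results of these data known. Named runs were, per gene, the one of smallest p and any at an unadjusted p under 0.05; of each partner list, up to 2 genes per direction. Alternatives were a coverage minimum of 20, no filter on level, limma on logit values, merged strands, the replicate number as a block, gaps of 50 bp, windows of 500 bp, equal weights and leaving out libraries. Leaving out saline 1 and cocaine 3 together was added after seeing the data. The labels name no molecular identifiers, so read counts may overstate precision, and by how much was not measured. No 2 libraries had reads alike within sampling noise (lowest mean chi-square per run 4.68). Same-numbered samples had correlations of -0.0083 to 0.0358 in their deviations, and other pairs -0.0817 to 0.0466. Same numbers thus showed no shared deviation, which cannot tell whether mice were matched by number.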

Additional observations from a re-analysis of the deposited data

Results flagged for a closer look

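In 64 sets of 4 libraries, each the cocaine or the saline libraries at 1 named integrin run, end or interior, 4 had a sample far from the other 3 by Dixon's ratio (over 0.829), and chance flags about 1 in 20, which is 3.2. At the lower-coordinate end of Itga6, saline 1 stood at 2.32%, above the other saline mice at 0.649% to 0.897%. At that of Itga7, cocaine 1 stood at 0.771%, below the other cocaine mice at 1.44% to 1.55%. In the Itgb4 interior, cocaine 4 stood at 41.8%, above 35.3% to 35.8%. In the Itga6 boundary run at 1466 bp, cocaine 1 stood at 27.1%, below 32.9% to 33.2%. The causes were not tested.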

How the results depend on the processing

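No integrin run, end or interior was called under any setting run, and the smallest adjusted p of a named one was 0.236, for the Itgb4 interior without cocaine 4. Over all genes, the 1 called run became 2 with a coverage minimum of 20, with gaps of at most 50 bp or without saline 1 and cocaine 3 together, and 0 with no filter on level or with limma. Leaving out 1 library gave 0 to 2 calls among runs (0 without cocaine 1 or cocaine 2, 2 without cocaine 3) and 0 to 2 among interiors (2 without cocaine 4). With the replicate number as a block 5 runs were called, 4 of them lower in cocaine mice, and no end or interior. The mean integrin difference ranged from -1.28 points without cocaine 4 to -0.498 without cocaine 3 when single libraries were left out.

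Leaving out single libraries moved the Itga3 interior from -2.87 to 0.545, Itga5 from -0.241 to 3.93, Itga7 from -1.84 to 2.17 and Itga9 from -2.27 to 0.314, the Itga7 run at 15835 bp from -0.588 to 2.23 and the far end of Itgb4 (93.2%) from -3.59 to 0.501 points. The sign turned in 15 settings of 6 results, none with an adjusted p under 0.05, and the cause was not tested. Besides these, the Itga9 interior became 0.911 points at 20 reads and the Itga7 run -1.86 with gaps of 50 bp. Without saline 1 and cocaine 3 together the far end of Itgb4 became 1.08 and the Itga7 interior 0.594, which was also positive without cocaine 2 (0.526) and cocaine 4 (1.10). With equal weights the interiors of Itga3, Itga5 and Itga7 became 2.12, -1.08 and 0.867.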
